A study of Rattus norvegicus with 18 samples.

Results

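The 10 genes described here are genes of blood vessel endothelium and of the signals that act on it: the endothelial genes Pecam1, Cdh5, Kdr, Flt1, Tek, Vwf and Emcn, the growth factors Vegfa and Vegfb, and the chemokine Cxcl12. They were taken as named genes, and every probe set whose only gene symbol in the platform annotation was one of these names was used. A probe set is a group of short probes on the array that together report one transcript. Of the 10 genes, 9 had a probe set and Cdh5 (VE-cadherin) had none, against 14217 named genes on the array. The 9 genes had 15 probe sets, of which 13 were at 400 or more on some array and were tested, with at least 1 for each of the 9 genes. Over the whole array 12238 of 31042 probe sets, with 7812 named genes, were tested. The 2 member probe sets below that minimum were 1397868_at of Kdr, with signals of 5.04 to 69.4, and 1370492_a_at of Flt1, with signals of 98.3 to 297.

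The animals were female Lewis rats of 6 to 8 weeks at the start. Experimental autoimmune myasthenia gravis (EAMG), a disease of the neuromuscular junction, was induced with 40 µg per rat of acetylcholine receptor (AChR) purified from the Torpedo electric organ, emulsified in complete Freund's adjuvant (CFA) to which 0.5 mg per rat of killed mycobacterium had been added. Controls received the adjuvant without AChR, so that both groups were exposed to it. At 6 weeks RNA was taken from diaphragm (DIA, which drives breathing), extensor digitorum longus (EDL, from the hindlimb) and extraocular muscle (EOM, the muscles of the eye), giving 6 groups of 3 arrays. The RNA on an array was a pool of rats, 4 to 5 for the tissue and 4 for the array RNA by the study's methods and 3 by the sample labels, so the arrays and not the animals are the replicates. Signals are on a linear scale set by GCOS 2.0, the scanner's own software.

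The median signal of an array was 129 to 163. GAPDH is probed near both ends of its transcript, and the 3' to 5' ratio, a sign of RNA breakdown, was 1.06 to 2.66, the highest on array 3 of DIA EAMG. The poly-A control RNA averaged 842 on array 2 of DIA EAMG and 586 on array 2 of EOM EAMG, against at least 11357 on the other arrays. Markers of the muscles held in part. Myh13, the extraocular myosin, had signals of 17345 to 27950 on EOM arrays and at most 323 elsewhere, and the muscle genes Acta1 and Ckm were at 23741 or more on every array. The limb factor Tbx4 was at most 45.4 on any array, EDL included, and Pitx1, another gene of hindlimb origin, was higher in EOM (166 to 232) than in EDL (17.6 to 71.9), so these 2 markers did not set EDL apart. The slow-fibre genes Myh7, Tnnt1 and Tnni1, chosen as higher in DIA than in EDL, overlapped between these muscles. Their signals were 15533 to 48748, 6026 to 31641 and 9738 to 30701 on EDL arrays. On DIA arrays they were 35067 to 42602, 24548 to 26431 and 19205 to 26368. For each gene the highest EDL array was thus above every DIA array, and its bearing on the EDL comparisons was not tested.

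Blood vessels of muscle are lined by endothelial cells that hold together through adhesion proteins such as Pecam1 and VE-cadherin and store von Willebrand factor. They respond to vascular endothelial growth factors (VEGF), made largely by the muscle fibres, through the tyrosine kinase receptors Kdr and Flt1, and to angiopoietins through Tek. Cxcl12 is a chemokine of stromal and endothelial cells that draws in cells carrying the receptor Cxcr4 and is taken up by the scavenging receptor Ackr3.

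The members Cxcl12, Emcn and Vegfb had a lower signal in EAMG over the 3 muscles together, and their promoters are shown because the letters just before the start of a gene are where factors that could act on several genes would bind. The bases are those before the gene's start in the RefSeq annotation of the rat assembly GRCr8, up to 250, with no transcribed base. Of the 10 genes, 6 had a promoter in the sequence table used. Capitals mark matches on either strand to GGGCGG, the box of the factor Sp1, in Cxcl12 and Vegfb. In Emcn they mark matches to AGGAAG, a form of the sites for ETS factors.
Cxcl12, chr4:152060531-152060780, plus strand: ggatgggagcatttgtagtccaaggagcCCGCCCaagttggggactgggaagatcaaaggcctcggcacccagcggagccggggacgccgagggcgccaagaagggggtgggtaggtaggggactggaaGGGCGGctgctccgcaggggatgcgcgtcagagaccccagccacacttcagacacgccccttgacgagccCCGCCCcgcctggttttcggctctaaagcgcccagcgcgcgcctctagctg
Emcn, chr2:228564289-228564444, plus strand: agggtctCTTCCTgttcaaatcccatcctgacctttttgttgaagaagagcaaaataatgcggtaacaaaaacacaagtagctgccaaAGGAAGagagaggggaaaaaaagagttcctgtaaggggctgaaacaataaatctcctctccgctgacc
Vegfb, chr1:213607255-213607402, minus strand: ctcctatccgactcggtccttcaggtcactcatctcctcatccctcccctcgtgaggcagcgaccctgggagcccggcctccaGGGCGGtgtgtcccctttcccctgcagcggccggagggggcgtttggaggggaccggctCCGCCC

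The Cxcl12 window was rich in G and C (67.6%) with 20 CpG pairs, and held 3 Sp1 matches, starting 222, 121 and 51 bases before the gene. The Vegfb window of 148 bases was 70.3% G and C with 11 CpG pairs and 2 Sp1 matches, 65 and 6 bases before the gene. In contrast, the Emcn window of 156 bases was 43.6% G and C, with 2 CpG pairs, no Sp1 match and 2 ETS matches, 149 and 68 bases before the gene. Among 33469 rat promoters, an Sp1 match was present in 30.5% of windows of 250 bases and 16.2% of windows of 148 bases, and an ETS match in 18.8% of windows of 156 bases. No match to ACGTG (a form of the core bound by hypoxia-inducible factors), to AGAACA (a glucocorticoid receptor motif) or to TATAAA was found in the 3 windows. The other form of that core, GCGTG, was not searched for, and its reverse complement cacgc stands in the Cxcl12 window shown. The shorter letters GGAA of ETS sites were not searched for either, and ggaa stands in that window too. ACGTG is present in 16.6%, 9.98% and 9.47% of rat promoter windows of 250, 156 and 148 bases, AGAACA in 17.5%, 11.2% and 10.6%, and TATAAA in 12.9%, 7.91% and 7.60%. No match in these windows overlapped another, and a match of letters is a description and not evidence of a bound factor.

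EAMG was first compared with adjuvant control within each muscle, to ask how the vessel genes respond to the disease. The probe set of Cxcl12 with the highest signal was lower in all 3 muscles, Emcn was lower in EDL, and none of the 13 probe sets was higher in a single muscle. A difference passed at an adjusted p under 0.05 from limma, fitted to all 18 arrays and adjusted over all 12238 probe sets. In DIA 1 of 13 member probe sets passed, lower, where 1.15% of all tested probe sets were lower and 2.68% passed in either direction. Over all probe sets 1.53% were higher in DIA, 3.37% in EDL and 0.964% in EOM, against none of the members. In EDL 2 of 13 passed, both lower (3.22% of all lower, 6.59% in either direction), and in EOM 1 of 13 passed, lower (0.531% and 1.5%). All 3 EAMG arrays lay below the 3 control arrays for 3 member probe sets in DIA, 4 in EDL and 4 in EOM. Over all tested probe sets the shares were 11.1%, 12.4% and 11.9%. The 3 in DIA were all of Cxcl12, and those in EDL were Emcn, Vegfb and Cxcl12 1388583_at and 1369633_at. In EOM they were Emcn, Vegfb, Vwf and Cxcl12 1388583_at, and 1 member probe set, of Flt1, lay above (12.5% of all). None lay above in DIA or EDL, where 13.3% and 12.6% of all did. Taking each of the 9 genes by its brightest probe set, the median log2 change was -0.02 for DIA, -0.40 for EDL and -0.35 for EOM, beside 0.01, -0.00 and 0.00 over all tested probe sets. Averaged over the 3 muscles, 1 member probe set was higher and 4 were lower, against 10.5% and 9.93% of all and 20.4% in either direction. The study's methods describe the 3 muscles as dissected from the rats of each group, so arrays of different muscles may share animals. The fit takes all arrays as independent, so the SE and p-value of any mean over the muscles given below may be too small.

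**Figure D1:**
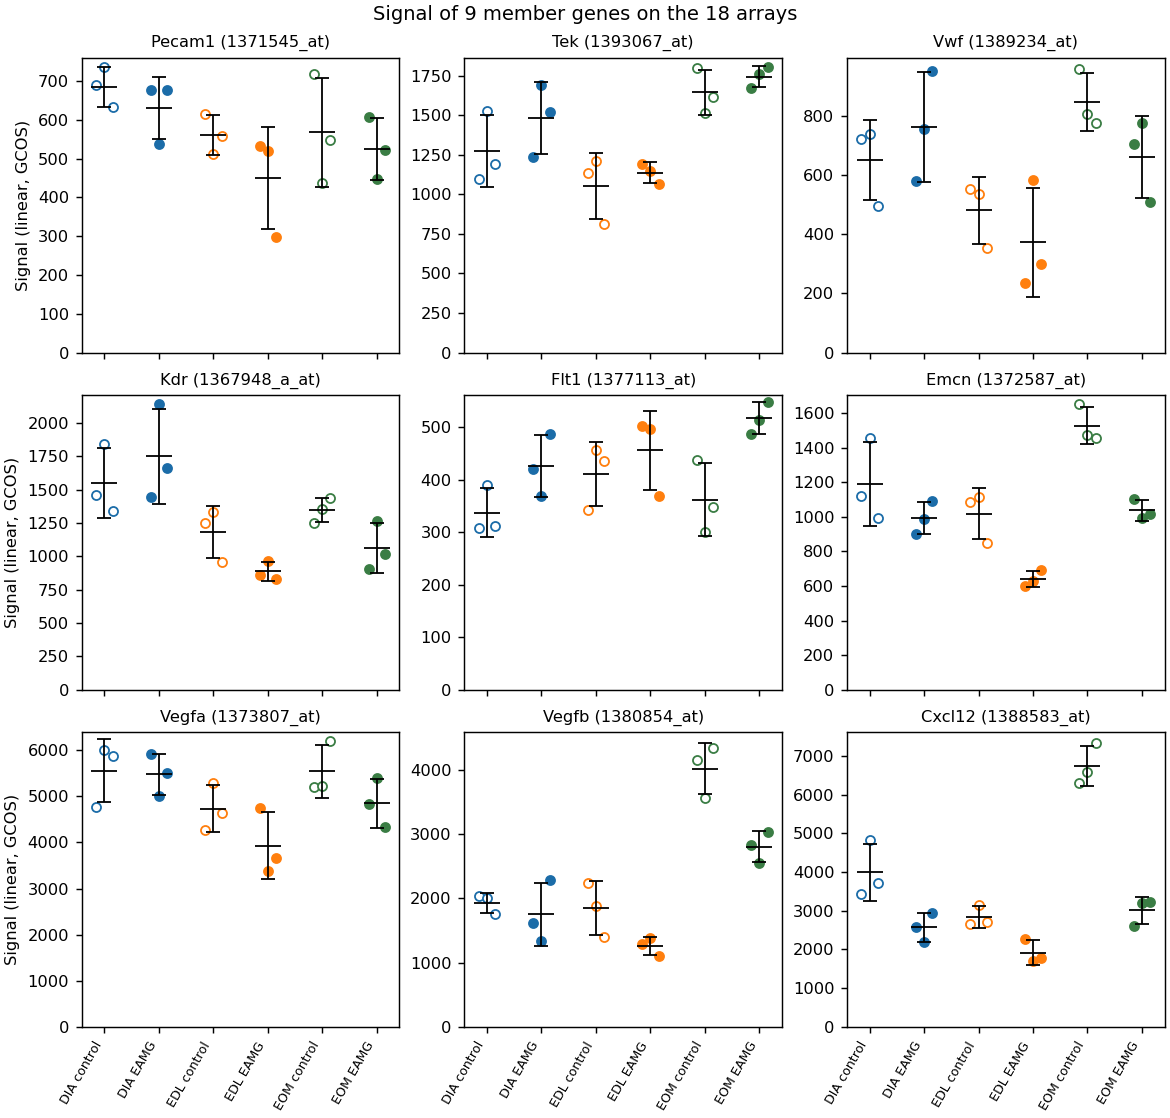
Signal (linear scale, GCOS) of the brightest probe set of each of the 9 member genes on the 18 arrays, open points for control and filled points for EAMG, with the mean and SD of each group of 3. Cxcl12 EAMG arrays lie below the control arrays in all 3 muscles, Emcn and Vegfb do so in EDL and EOM, while Pecam1, Tek and Vegfa overlap in every muscle.

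Cxcl12, the chemokine, had 3 probe sets. Probe set 1388583_at gave 3436, 4816 and 3718 on the DIA control arrays and 2589, 2188 and 2944 on the DIA EAMG arrays. In EDL the signals were 2648, 3152 and 2713 in control and 2279.6, 1703 and 1771 in EAMG. In EOM they were 6302, 6596 and 7323 in control and 2602, 3200.1 and 3230.4 in EAMG. In each muscle every EAMG array was below every control array, and EOM had both the highest control arrays and the widest gap. The signal fell by 0.63 (SE 0.16) on the log2 scale in DIA (adjusted p = 0.0485 from limma), by 0.57 (SE 0.16) in EDL (adjusted p = 0.0439) and by 1.17 (SE 0.16) in EOM (adjusted p = 0.00136), or 1.55-fold, 1.49-fold and 2.25-fold. Averaged over the muscles the fall was 0.79 (SE 0.09, adjusted p = 8.81e-05 from limma). It was 1 of 16 probe sets (0.131% of those tested) that passed as lower in all 3 muscles. In RNA from whole muscle, fewer cells of a type and less RNA per cell cannot be told apart.

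The calls differed in how they held when 1 array was left out. In EOM and in the mean over the muscles the Cxcl12 call was kept in all 18 such fits. In DIA it was kept in 3, those without EDL EAMG 1, EDL EAMG 2 or EOM EAMG 1, and without DIA EAMG 2 the change was -0.52 (adjusted p = 0.225 from limma). In EDL it was kept in 7, those without DIA control 1 or 2, DIA EAMG 2 or 3, EDL EAMG 1, or EOM EAMG 1 or 2, and without EDL EAMG 2 the change was -0.49 (adjusted p = 0.151). The adjusted p in DIA was 0.0535 from limma with the replicate number of the labels as a block. With no signal minimum it was 0.190 in DIA and 0.171 in EDL, and with each muscle fitted alone 0.189 and 0.168. Without both arrays of low poly-A signal the changes were -0.52 in DIA (adjusted p = 0.231), -0.57 in EDL (adjusted p = 0.0412) and -1.21 in EOM (adjusted p = 0.00533 from limma).

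The other probe sets of Cxcl12 gave a different picture in EOM. Probe set 1369633_at had signals of 3566, 3368 and 3173 in EOM control and 2998, 4347 and 3784 in EOM EAMG arrays, groups that overlapped. In DIA it had 1371, 1725 and 1453 in control against 899.9, 1125 and 1199.5 in EAMG, and in EDL 1344, 1973 and 1256 against 1070.3, 1078 and 946. In both of these muscles every EAMG array was below every control array. Its changes were -0.50 in DIA (adjusted p = 0.134 from limma), -0.54 in EDL (adjusted p = 0.0802, and 0.0432 with that block) and 0.12 in EOM (95% interval -0.25 to 0.50, adjusted p = 0.820). Its mean change over the muscles was -0.30 (adjusted p = 0.0465 from limma), a call kept in 4 of 18 fits with an array removed, those without DIA EAMG 3, EDL control 1 or 3, or EOM EAMG 2, and highest without EOM EAMG 1 (adjusted p = 0.0874). Probe set 1387655_at, which reached 400 on the 6 EOM arrays alone, changed by -0.61 in DIA (adjusted p = 0.255), -0.12 in EDL (adjusted p = 0.839) and -0.15 in EOM (adjusted p = 0.877 from limma).

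Within an array the ratio of 2 probe sets of a gene shows whether they changed alike. The log2 ratio of 1388583_at to 1369633_at was 0.82 to 1.21 on the EOM control arrays and -0.44 to -0.20 on the EOM EAMG arrays, a change of -1.29 with no overlap. In DIA its change was -0.13 and in EDL -0.04, and there the groups overlapped. The two-sided exact permutation test gave p = 0.1 in EOM, the smallest value that 3 arrays against 3 allow, p = 0.6 in DIA and p = 0.7 in EDL. Against 1387655_at the ratio changed by -1.02 in EOM (exact permutation p = 0.1). Over the 21 ratios of this kind computed for Cxcl12, Vegfa and Flt1, each of these p-values adjusted to 0.919. The mean of the 3 Cxcl12 probe sets fell by 0.58 in DIA (adjusted p = 0.0348 from limma), and was -0.41 in EDL (adjusted p = 0.0795) and -0.40 in EOM (adjusted p = 0.185), with a fall of 0.46 in the mean over the muscles (adjusted p = 0.00114). The drop of Cxcl12 in EOM thus rested on 1 of its 3 probe sets.

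**Figure D2:**
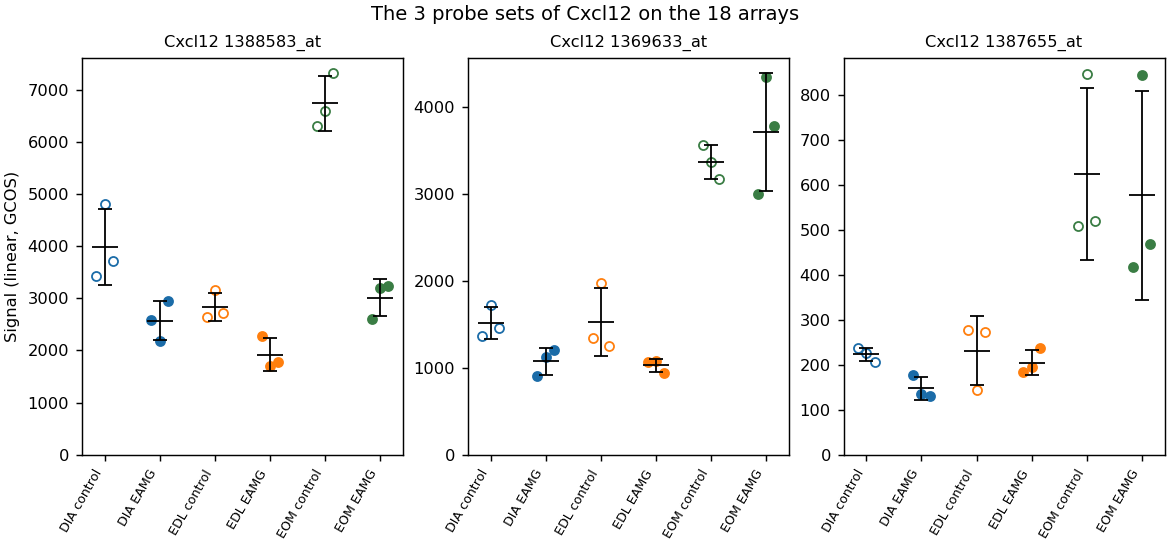
Signal (linear scale, GCOS) of the 3 Cxcl12 probe sets on the 18 arrays, open points for control and filled points for EAMG, with the mean and SD of each group of 3. In EOM the EAMG arrays of 1388583_at lie between 2602 and 3230 against 6302 to 7323 in control, while those of 1369633_at and 1387655_at overlap the control arrays.

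Emcn encodes endomucin, a sialomucin of the endothelial surface found mainly on capillaries and veins. Its signals in EDL were 1088, 1118 and 850.4 in control and 601, 627 and 691 in EAMG arrays. In EOM they were 1651, 1476 and 1456 in control and 1105, 994 and 1014 in EAMG, and in DIA 1119, 1458 and 993 and 902, 989 and 1090.2. EAMG and control did not overlap in EDL or EOM and overlapped in DIA. Emcn fell by 0.66 (SE 0.14) in EDL on the log2 scale (adjusted p = 0.0166 from limma), or 1.58-fold. The change was -0.56 in EOM (adjusted p = 0.0708) and -0.25 in DIA (adjusted p = 0.361). Over the 3 muscles it fell by 0.49 (SE 0.08, adjusted p = 0.00122 from limma), a call kept in all 18 fits that left out 1 array. The EDL call was lost in 3 of them, without EDL control 1 (adjusted p = 0.0776), EDL control 2 (adjusted p = 0.0693) or EDL EAMG 2 (adjusted p = 0.0610 from limma).

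Vegfb, a VEGF that binds Flt1 but not Kdr, was lower in EAMG over the 3 muscles together. In EOM its signals were 4149.6, 3571 and 4342 in control and 2839.9, 2551 and 3034 in EAMG arrays. In EDL they were 2248, 1879 and 1406 in control and 1282, 1379 and 1102 in EAMG, and in DIA 2039, 2003 and 1752 and 1618, 1340.0 and 2295. The groups were apart in EOM and, by a small margin, in EDL, and overlapped in DIA, where array 3 of EAMG was the highest. The change was -0.54 in EDL (adjusted p = 0.105 from limma), -0.52 in EOM (adjusted p = 0.236) and -0.17 in DIA (adjusted p = 0.649), none of which passed alone. Averaged over the muscles Vegfb fell by 0.41 (SE 0.11, adjusted p = 0.0178 from limma) and the call was kept in all 18 fits that left out 1 array, though without both arrays of low poly-A signal the change was -0.33 (adjusted p = 0.0635).

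Vegfa, the main growth factor for new vessels, showed no change that passed. Its brighter probe set, 1373807_at, had 4771, 6016 and 5882 in DIA control and 5912, 5015 and 5505 in DIA EAMG arrays. In EDL it had 4278, 5283 and 4637 in control and 4748, 3374 and 3668 in EAMG, and in EOM 5198, 5230.2 and 6213 and 4842, 5391 and 4326. Control and EAMG arrays overlapped in every muscle. The changes were -0.02 in DIA (95% interval -0.33 to 0.30), -0.28 in EDL (-0.59 to 0.04) and -0.19 in EOM (-0.51 to 0.12), with adjusted p-values of 0.965, 0.267 and 0.625 from limma, and the mean over the muscles was -0.16 (-0.34 to 0.02, adjusted p = 0.188). For this probe set alone, these intervals leave room for a fall of up to 0.59 in EDL and set the largest rise at 0.30 in DIA on the log2 scale. The dimmer probe set, 1370081_a_at, ranged from 215 to 993 and did not pass either. Its intervals were wide, with -0.11 for DIA (-1.02 to 0.80), 0.38 for EDL (-0.53 to 1.29) and -0.06 for EOM (-0.97 to 0.85), and leave room for a larger rise.

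Of the VEGF receptors, Kdr (VEGFR2), which carries most of the growth signal, did not pass in any muscle. Its signals were 1253, 1335 and 959 in EDL control and 864, 968 and 829.9 in EDL EAMG arrays. EOM gave 1253, 1355 and 1438 in control and 904, 1268 and 1017 in EAMG, and DIA 1460.3, 1845 and 1342 in control and 1449, 2143 and 1660.4 in EAMG. The lowest EDL control array was array 3, which lay between EAMG arrays. The change was 0.17 in DIA (95% interval -0.20 to 0.54), -0.40 in EDL (-0.78 to -0.03) and -0.35 in EOM (-0.73 to 0.02), and the adjusted p-values from limma were 0.626, 0.179 and 0.412.

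Flt1 (VEGFR1), which binds VEGF with high affinity and, as a soluble form, holds it away from Kdr, was the only member with a probe set higher in the mean over the muscles. Probe set 1377113_at had 438, 301 and 348 in EOM control and 487, 515 and 548 in EOM EAMG arrays. In DIA it had 308, 390.3 and 312 and 421, 368 and 486, and in EDL 342, 456 and 435 and 502, 497 and 369. All 3 EAMG arrays were above all control arrays in EOM, and the groups overlapped in DIA and EDL. The change was 0.53 in EOM (adjusted p = 0.162 from limma), 0.33 in DIA (adjusted p = 0.292) and 0.15 in EDL (adjusted p = 0.645), and the mean rose by 0.34 (SE 0.10, adjusted p = 0.0268), or 1.26-fold. That call was lost in 6 of 18 fits that left out 1 array, with adjusted p-values of 0.0505 to 0.0572 without DIA control 1 or 3, DIA EAMG 3, EDL control 1, EDL EAMG 2 or EOM control 2. The dimmer probe set 1369087_at reached 400 on a single array and its mean change was 0.02 (95% interval -0.44 to 0.48, adjusted p = 0.953 from limma), and on array 3 of DIA EAMG, the array with the highest GAPDH ratio, it stood at 68.5. The mean of both tested probe sets changed by 0.18 (adjusted p = 0.247), so the rise of Flt1 rested on 1 probe set of 2.

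Tek (Tie2), the receptor of the angiopoietins, overlapped between EAMG and control in every muscle. Its mean signal in DIA was 1272 ± 226 (SD, n = 3) for control and 1480.4 ± 227 for EAMG. For EDL these means were 1052 ± 209.8 and 1135 ± 65.99, and for EOM 1643 ± 143 and 1743 ± 67.5. Its mean change over the muscles was 0.15 (95% interval -0.05 to 0.34, adjusted p = 0.284 from limma).

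Pecam1 (CD31), an adhesion molecule of the junctions between endothelial cells, did not pass in any comparison. DIA gave signals of 689, 736 and 633 in control and 677, 538 and 676 in EAMG. EDL gave 615, 511 and 558 in control and 534, 519.9 and 297 in EAMG, and EOM 718, 438 and 548 in control and 607, 448 and 522 in EAMG. The groups overlapped in every muscle and array 3 of EDL EAMG was the lowest of the 18. Its mean change over the muscles was -0.19 (95% interval -0.46 to 0.07, adjusted p = 0.288 from limma).

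Vwf, von Willebrand factor, which tethers platelets, varied more between arrays of a group. In EOM it had 958, 809 and 777 in control and 705, 777 and 508 in EAMG arrays, in DIA 723, 739 and 496 and 582, 758 and 955, and in EDL 554, 536 and 352 and 237, 584 and 298. The groups were barely apart in EOM and overlapped in DIA and EDL. None of its changes passed: 0.22 for DIA, -0.45 for EDL and -0.37 for EOM (adjusted p = 0.714, 0.390 and 0.652 from limma). For the 6 endothelial genes with a probe set, 4 lay above 0 in DIA and 2 each in EDL and EOM, and the median change was 0.20, -0.38 and -0.22.

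**Figure D3:**
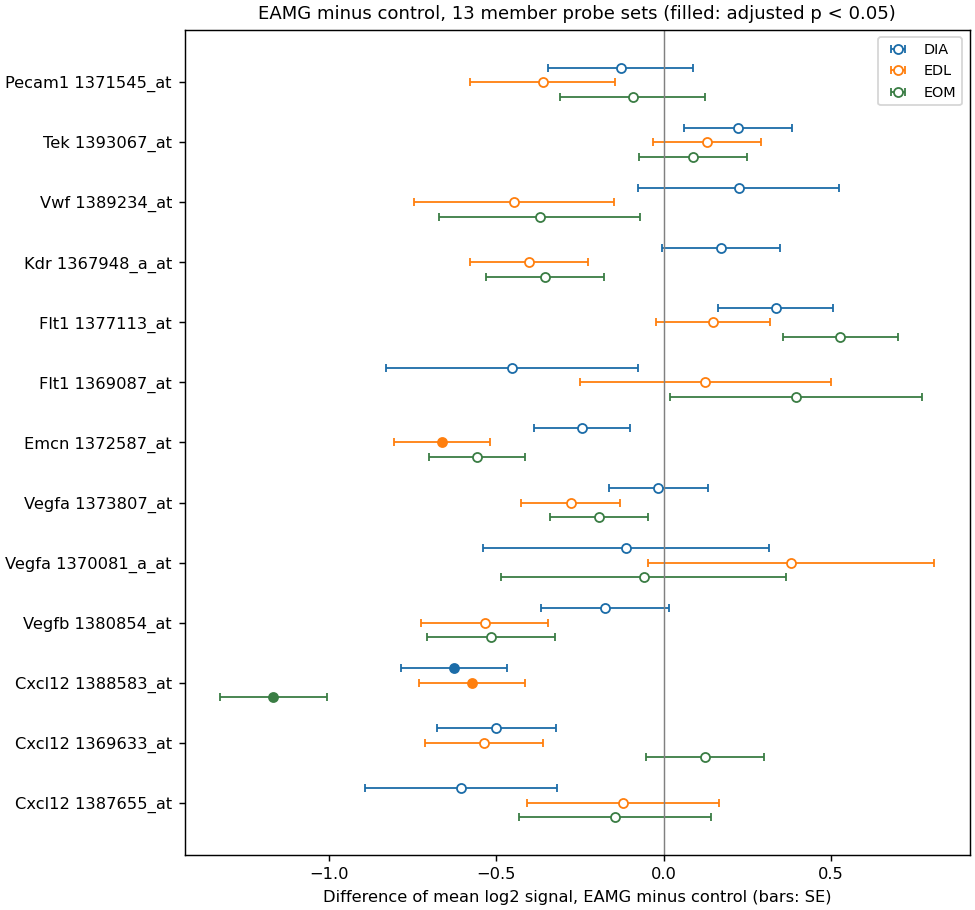
Change in EAMG (difference of mean log2 signal, EAMG minus control, with its SE) of the 13 tested member probe sets in DIA, EDL and EOM. Filled points passed at an adjusted p under 0.05: Cxcl12 1388583_at in all 3 muscles and Emcn in EDL, all below 0.

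Whether the response differed between muscles was tested as the difference of the changes. None of the 13 member probe sets passed in any of the 3 pairs of muscles by limma, where 0.0163% (EOM against DIA), 0.106% (EOM against EDL) and 0.0163% (DIA against EDL) of all probe sets did, and 2, 2 and 1 of the 13 had an unadjusted p under 0.05. For Cxcl12 1388583_at the change in EOM differed from that in DIA by -0.54 (95% interval -1.02 to -0.06, adjusted p = 0.714 from limma) and from that in EDL by -0.59 (-1.07 to -0.11, adjusted p = 0.388). For 1369633_at the same differences were 0.62 (0.09 to 1.16, adjusted p = 0.704) and 0.66 (0.13 to 1.19, adjusted p = 0.385 from limma), in the opposite direction.

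The control arrays were then compared between muscles, since the 3 muscles differ in fibre types, use and blood supply. Members were most often highest in EOM. Between EOM and EDL, 7 of 13 probe sets were higher in EOM and none was lower, against 23.1% of all tested probe sets higher, 18.3% lower and 41.4% in either direction. Between EOM and DIA, 4 of 13 were higher in EOM and none was lower (10.6% higher, 10.7% lower and 21.3% in either direction over all), and between DIA and EDL 1 of 13 was higher in DIA and none was lower (14.1%, 10.8% and 24.8%). All 3 EOM control arrays were above all 3 EDL control arrays for 8 of 13 probe sets (31.2% of all) and above the DIA control arrays for 5 (22.7%), and DIA lay above EDL for 4 (22.8%). These counts include 2 probe sets that were tested only because EOM arrays reached 400, 1387655_at of Cxcl12 and 1369087_at of Flt1. Without both, 6 of 11 were higher in EOM than in EDL and 3 of 11 higher than in DIA. The genes that passed between EOM and EDL were Cxcl12, by all 3 probe sets, Vegfb, Tek, Emcn and Vwf. Between EOM and DIA only 2 of the 9 genes passed, Cxcl12, again by all 3 probe sets, and Vegfb. None of the 6 endothelial genes with a probe set passed between EOM and DIA.

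Cxcl12 was higher in EOM by all 3 probe sets. The control signals of 1388583_at given above did not overlap between any of the 3 muscles, with EOM above DIA and DIA above EDL. It was higher in EOM than in EDL by 1.25 (SE 0.16, adjusted p = 2.13e-05 from limma) and than in DIA by 0.77 (adjusted p = 0.00267), and higher in DIA than in EDL by 0.48 (adjusted p = 0.0385). The last call was lost in 4 of 18 fits that left out 1 array, without DIA control 2 (adjusted p = 0.168), DIA control 3 (adjusted p = 0.0607), EDL control 1 (adjusted p = 0.119) or EDL control 3 (adjusted p = 0.0924), and the other probe sets placed DIA and EDL 0.01 apart. Probe set 1369633_at was higher in EOM than in EDL by 1.17 (adjusted p = 9.82e-05) and than in DIA by 1.16 (adjusted p = 2.21e-04 from limma). Probe set 1387655_at was higher by 1.46 and 1.45 (adjusted p = 8.95e-04 and 0.00195), a difference that the signal minimum favours since only EOM arrays reached it.

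Vegfb was higher in EOM than in EDL by 1.15 (SE 0.19, adjusted p = 2.29e-04 from limma) and than in DIA by 1.06 (adjusted p = 9.52e-04), with the EOM control arrays at 3571 or more and the DIA and EDL control arrays at 2248 or less. DIA and EDL differed by 0.09 (95% interval -0.32 to 0.50) and overlapped. Vegfa by contrast was alike in EOM and DIA (difference 0.00, 95% interval -0.31 to 0.31, adjusted p = 1.00) and was 0.23 above EDL in both, which did not pass (adjusted p = 0.229 and 0.276 from limma).

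Tek was higher in EOM than in EDL by 0.66 (SE 0.16, adjusted p = 0.00418 from limma), and Emcn by 0.59 (SE 0.14, adjusted p = 0.00404). For both, EOM lay above DIA by 0.38 without passing (adjusted p = 0.112 and 0.0772). Vwf was higher in EOM than in EDL by 0.84 (SE 0.30, adjusted p = 0.0348 from limma), a call lost without EDL control 3 (change 0.63, adjusted p = 0.138), EOM control 1 (adjusted p = 0.106), EOM control 2 (adjusted p = 0.0653) or EOM control 3 (adjusted p = 0.0581). Pecam1 differed between control EOM and EDL by -0.01 (95% interval -0.47 to 0.45, adjusted p = 0.982) and Kdr by 0.20 (-0.17 to 0.58, adjusted p = 0.383), while Kdr in DIA was 0.39 above EDL with no overlap of arrays (adjusted p = 0.118 from limma, and 0.0437 with the replicate number of the labels as a block).

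**Figure D4:**
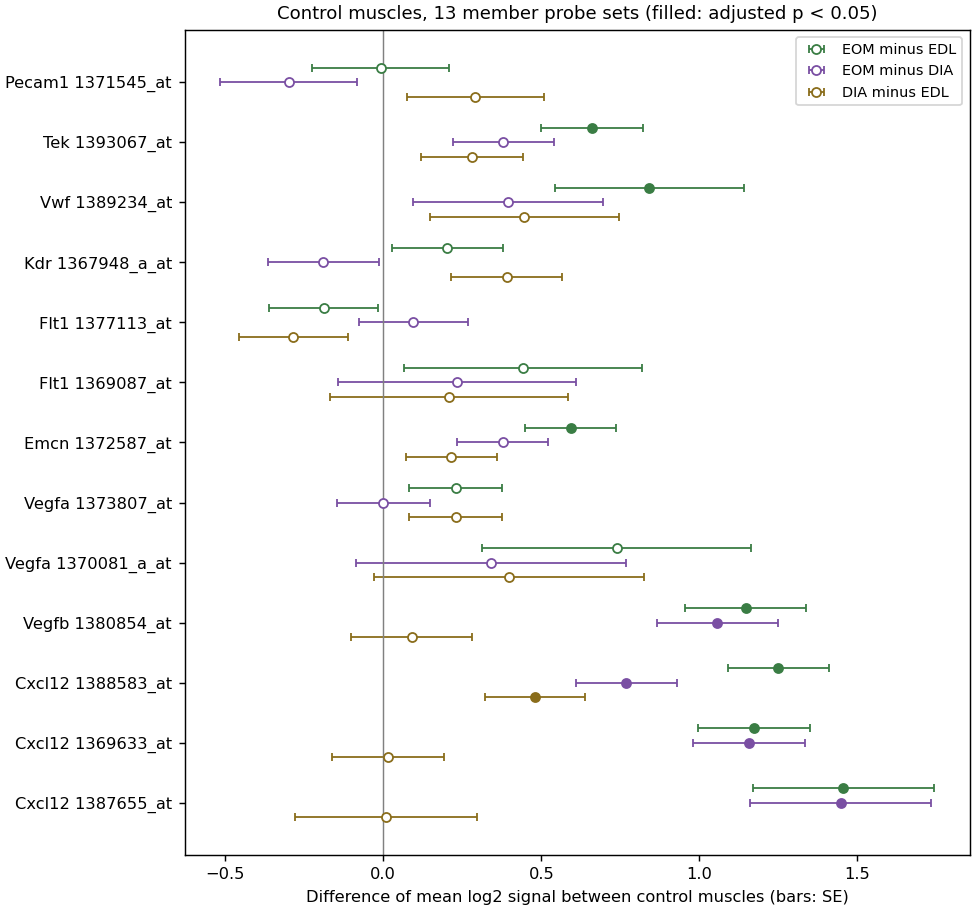
Differences between control muscles (difference of mean log2 signal with its SE) for the 13 tested member probe sets. Filled points passed at an adjusted p under 0.05: between EOM and EDL these were Tek, Vwf, Emcn, Vegfb and the 3 Cxcl12 probe sets, all above 0.

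The EAMG arrays, which are separate RNA pools, gave a second measure of the muscles. Among them 7 of 13 member probe sets were higher in EOM than in EDL (25.6% of all tested probe sets were), 4 were higher and 1 was lower in EOM than in DIA (13.5% of all higher), and 4 were higher in DIA than in EDL (14%). The 4 higher in EOM than in DIA were Vegfb, Flt1 1369087_at and Cxcl12 1369633_at and 1387655_at. Without Flt1 1369087_at and Cxcl12 1387655_at, 6 of 11 were higher in EOM than in EDL and 2 of 11 higher than in DIA. Vegfb stood 1.17 above EDL and 0.71 above DIA in EOM (adjusted p = 1.72e-04 and 0.0113 from limma), and Cxcl12 1369633_at 1.83 and 1.78 (adjusted p = 1.38e-06 and 3.21e-06). For Cxcl12 1388583_at the EOM excess over EDL was 0.66 among EAMG arrays (adjusted p = 0.00353 from limma), against 1.25 among control arrays. Kdr was the member lower in EOM than in DIA, with a difference of -0.71 (adjusted p = 0.00677), and was higher in DIA than in EDL by 0.96 (adjusted p = 0.00134 from limma). Emcn, Vwf and Vegfa 1373807_at were the other members higher in DIA than in EDL in EAMG, by 0.63, 1.12 and 0.49 (adjusted p = 0.00587, 0.0148 and 0.0263).

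The other genes of these pathways were taken from lists made by role, and their counts are to be read beside the shares of all tested probe sets given above. Of 6 further VEGF ligands and receptors 3 were tested (Vegfc, Nrp1 and Nrp2) and none passed in a single muscle. The neuropilins, co-receptors that present VEGF to Kdr, were lower in the mean over the muscles, Nrp1 with a change of -0.32 (adjusted p = 0.0366 from limma) and Nrp2 of -0.53 (adjusted p = 0.0168). Nrp2 had 580.4, 546 and 397 in DIA control and 353, 267 and 381 in DIA EAMG arrays, which did not overlap. Of 4 genes of the angiopoietin and Tie pathway 3 were tested and none passed in EAMG. Angpt2, the angiopoietin that loosens vessels, changed by -0.66 in DIA (adjusted p = 0.0748) with all EAMG arrays below control, and Ptprb, a phosphatase that acts on Tek, by 0.43 in DIA (adjusted p = 0.166 from limma).

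Both receptors of Cxcl12 were tested and neither passed in EAMG. Ackr3 had 2532, 2886 and 2943 in EOM control and 1852, 1999 and 1915 in EOM EAMG arrays, which did not overlap, a change of -0.53 (adjusted p = 0.0942 from limma), and changes of -0.03 in DIA and 0.04 in EDL. Cxcr4, by an x_at probe set that may cross-hybridize, changed by 0.62 in EOM (adjusted p = 0.452) with overlapping arrays. Among control muscles Ackr3 was higher in EOM than in EDL by 0.72 (adjusted p = 0.00117) and Cxcr4 was lower by 0.87 (adjusted p = 0.0457 from limma).

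Of 47 other endothelial genes, a list that also holds Tek, 43 had a probe set and 37 were tested. In DIA 1 was higher and 1 lower, in EDL 1 higher and 2 lower, in EOM none passed, and in the mean over the muscles 3 were higher and 7 lower, where 10.5% and 9.93% of all tested probe sets were. The median change was 0.02, -0.14 and -0.14 in DIA, EDL and EOM. Apln, apelin, a peptide of the tip cells of growing vessels, had 436, 501 and 435 in DIA control and 229, 109 and 158 in DIA EAMG arrays and fell by 1.53 (adjusted p = 0.00239 from limma). In EDL it went from 174 ± 9.16 to 76.95 ± 3.08 (SD, n = 3), a fall of 1.18 (adjusted p = 0.00734), and in EOM it changed by -0.58 (adjusted p = 0.243). Apln was tested only because its DIA control arrays reached the signal minimum, which favours its fall in DIA. Its signals in EDL and EOM were below that minimum on every array. Cldn5, a tight junction protein of endothelium, rose by 0.66 in DIA (adjusted p = 0.0412) and 0.75 in EDL (adjusted p = 0.0163 from limma), and changed by 0.52 in EOM (adjusted p = 0.145), with every EAMG array above every control array in all 3 muscles.

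Sox7, a transcription factor of endothelium, fell by 0.61 in EDL (adjusted p = 0.0478 from limma) and had all EAMG arrays below control in the other muscles too, with changes of -0.54 in DIA and -0.62 in EOM that did not pass. Chosen after their values were seen, Aplnr, the apelin receptor, fell by 0.88 in the mean over the muscles (adjusted p = 0.00226), while the sphingosine 1-phosphate receptor S1pr1 and the flow-induced factor Klf2 each rose by 0.59 (adjusted p = 0.00318 and 0.0147 from limma). Among control arrays 10 of the 37 were higher in EOM than in EDL and none was lower (23.1% and 18.3% of all), and 10 were higher and 1 was lower in DIA than in EDL (14.1% and 10.8%).

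Of 10 Notch genes of vessels, which set arterial identity and sprouting, 8 were tested and none passed in EAMG. The largest changes were 0.69 for Hes1 in EDL (adjusted p = 0.213 from limma) and -0.61 for Jag1 in EOM (adjusted p = 0.238), and among control arrays 5 of 8 were higher in EOM than in EDL. Among 16 genes of the hypoxia response, which can induce Vegfa, 11 were tested. Ndufa4l2 fell in DIA, EDL and EOM by 0.93, 0.82 and 0.96 (adjusted p = 0.0208, 0.0224 and 0.0176 from limma), and Pfkfb3 rose by 2.04 in DIA (adjusted p = 0.0212), the 2 genes of the list that passed in a muscle. Only control arrays of EDL and EOM brought Ndufa4l2 over the signal minimum, which favours its falls in those muscles. Of the 3 genes of the PGC-1 and ERR group, inducers of Vegfa in muscle, Ppargc1b fell by 1.28 in EDL (adjusted p = 0.00302) and 1.01 in EOM (adjusted p = 0.0167 from limma), and the others did not pass.

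On a list drawn up as inhibitors of angiogenesis, 10 of 12 genes were tested. Adamts8, a protease with thrombospondin repeats, rose from 266 ± 43.7 to 1308 ± 529 (SD, n = 3) in DIA, by 2.23 (adjusted p = 0.00134 from limma), with changes of 0.88 in EDL and 0.39 in EOM that did not pass although the arrays did not overlap. In EDL Thbs4, which is on the list but is not read here as an inhibitor, rose by 0.93 (adjusted p = 0.0402 from limma). Col18a1, whose end yields endostatin, and the matrix protein Sparc fell there by 1.25 and 0.91 (adjusted p = 0.0227 and 0.00526 from limma). Col18a1 reached the signal minimum only on array 2 of EOM EAMG. Its EDL signals were below that minimum on every array, at 129 to 297 in control and 62.2 to 126 in EAMG. No gene of this list passed in EOM.

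**Figure D5:**
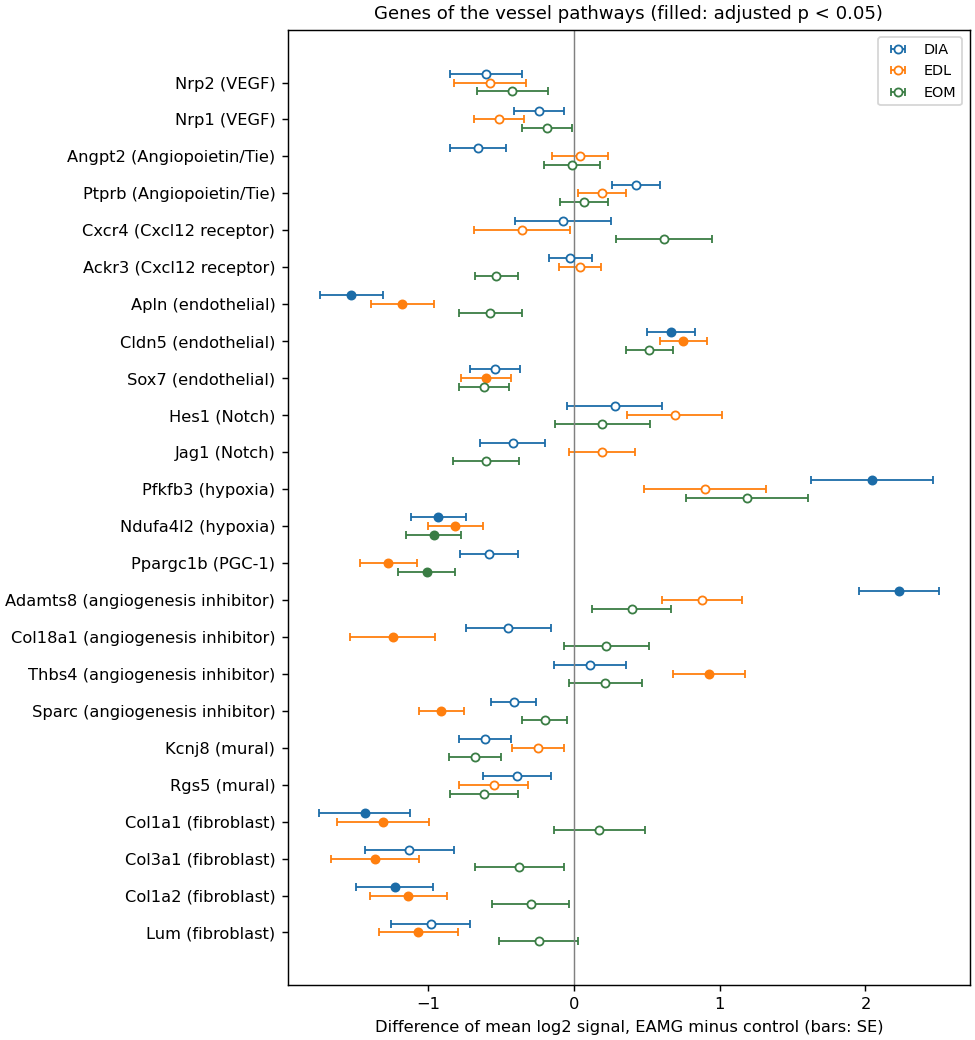
Change in EAMG (difference of mean log2 signal, EAMG minus control, with its SE) in DIA, EDL and EOM of the named genes of the vessel pathways, of mural cells and of fibroblasts. Filled points passed at an adjusted p under 0.05: Ndufa4l2 lies below 0 in all 3 muscles, Cldn5 above 0 in DIA and EDL, and Col1a1 and Col1a2 below 0 in DIA and EDL.

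Markers of other cells moved with the members in part. Of 9 fibroblast markers, cells that also make Cxcl12, 8 were tested: 2 were lower in DIA, 4 in EDL and none in EOM. Their summed signal was 50597 to 60134 in DIA control and 35105 to 44350 in DIA EAMG arrays, 24658 to 41028 and 19152 to 26118 in EDL, and 69388 to 74683 and 62241 to 71107 in EOM. The sums were apart in DIA and overlapped in EDL and EOM. Col1a1 fell by 1.44 in DIA and 1.31 in EDL (adjusted p = 0.0258 and 0.0249 from limma) and changed by 0.17 in EOM, and among control arrays 7 of the 8 were higher in EOM than in EDL. The part of fibroblasts in the changes of Cxcl12 was not tested in any muscle.

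The summed signal of the 43 endothelial genes overlapped between EAMG and control in each muscle, at 39117 to 54021 and 43560 to 50473 in DIA, 30740 to 39998 and 34425 to 36736 in EDL, and 45696 to 47895 and 45348 to 50196 in EOM. Of 11 genes of mural cells, the pericytes and smooth muscle of vessel walls, 7 were tested and none passed in a single muscle. In the mean over the muscles Kcnj8 and Rgs5 fell by 0.51 and 0.52 (adjusted p = 0.00353 and 0.0147 from limma). Kcnj8 reached the signal minimum on control arrays alone, which favours its fall. Blood left in the vessels can add red cell RNA: the 3 tested markers were lower in DIA and EOM and 1 in EDL, and Hbb fell by 2.10 in DIA (adjusted p = 0.0101 from limma). Of the 3, Alas2 also reached the signal minimum on control arrays alone. The sum over 4 red cell markers was 13457 to 20183 in DIA control and 2301 to 5500 in DIA EAMG, 3881 to 5756 and 1417 to 2937 in EDL, and 8968 to 12604 and 2223 to 3779 in EOM. The part of blood content in the members' changes was not tested.

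The likeness of members across arrays depended on whether the EAMG change was part of it. With each muscle's mean removed, which leaves the EAMG change in, Pearson's r of log2 signal over the 18 arrays, which share pools and treatment, was 0.80 between Emcn and Vegfb, 0.79 between Emcn and Cxcl12 and 0.72 between Vegfb and Cxcl12. These 3 members were lower in EAMG, so their r holds that shared fall. With each group's mean removed instead, a description added after the data were seen, r was 0.47, 0.26 and 0.34 for the same pairs. Between Flt1 and Cxcl12 it turned from -0.54 to 0.55. Over all tested genes, with the muscle mean removed, the 5 most like Cxcl12 were Grb14 (r = 0.92), Prpf19 (0.91), Chrdl2 (0.90), Tmem88 (0.89) and Mlf1 (0.89). Those most like Vegfa were Trpt1 (0.91), Prom2 (0.85), Sem1 (0.84), Cox10 (0.84) and Naa15 (0.80), and those most like Pecam1 were Mtg2 (0.90), Rtn3 (0.86), Letm1 (0.84), Zbtb43 (0.84) and Kansl1 (0.83). No member was among them. These values also hold any EAMG change, are the highest picked from all tested genes, and for Cxcl12 rest on probe set 1388583_at.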

How the data were processed

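RNA from 3 muscles of EAMG and control rats was measured on 18 arrays in 6 groups of 3. The authors scanned the arrays and summarized each probe set with GCOS 2.0; the deposited values are linear signal intensity, scaled by the authors to a common target per array, and no detection or change calls were used here. After 57 array controls were set aside, 31042 probe sets remained; the platform annotation gave 20826 of these a single gene symbol, 436 more than 1 and 9780 no symbol. The study's methods leave out transcripts below 400 on all samples, so a signal of 400 on at least 1 array was required. Signals were taken to log2 and fitted with limma 3.58.1 (R 4.3.3), with 1 mean per group over all 18 arrays, and p-values were adjusted by Benjamini and Hochberg over the 12238 probe sets tested. Intervals are at 95%. A gene is given by its brightest probe set, with the others beside it. Named from the other lists are up to 4 members with the largest EAMG change among those that passed in a muscle, or the 2 largest where none passed. The 10 genes, the lists and the alternatives were chosen with earlier results of these data known. The lists cover VEGF, angiopoietin, Cxcl12 receptor, endothelial, Notch, hypoxia, PGC-1, angiogenesis inhibitor, mural, fibroblast, lymphatic, red cell, platelet, macrophage, orbital gland and glucocorticoid target genes. The fit was tested on simulated data with independent errors and with changes set in DIA alone. That simulation held no shared animals and no pairing of arrays, so it cannot show how p-values behave under them. Nothing states that the pools of a group came from separate animals beyond the study's account of 3 repeats, so p-values measure the spread between these arrays, and their number limits the precision. The comparison of muscles within the EAMG arrays, the counts without probe sets that only EOM arrays brought over the minimum, and the likeness with group means removed were added after the data were seen. Plots were made in matplotlib 3.10.9 under python 3.11.15.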

Additional observations from a re-analysis of the deposited data

How the results depend on the processing

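The excess of Cxcl12, Vegfb, Tek and Emcn in control EOM over EDL passed under every alternative run, and so did the fall of Cxcl12 1388583_at in EOM, except that the mean of the gene's 3 probe sets did not pass there (adjusted p = 0.185 from limma). The calls near the threshold did not. With no signal minimum, where more probe sets share the adjustment, the member probe sets that passed numbered 0 in DIA and 0 in EDL. There were 2 in the mean over the muscles and 0 between control DIA and EDL. Quantile normalization gave 1 in EDL and 2 in EOM, the second being Emcn (adjusted p = 0.0384 from limma), and lost the Cxcl12 call in EDL (adjusted p = 0.0541) and that of Vwf between control EOM and EDL (adjusted p = 0.0506), while Vegfa passed there (adjusted p = 0.0466). With each muscle fitted alone, or under the rule of 7 of 9 ratios at 2-fold, 0 passed in DIA and 0 in EDL. The 6 control arrays of DIA and EDL alone gave 0. With both arrays of low poly-A signal removed, DIA gave 0. Deviations from the group means correlated above 0.1 in 7 of 9 pairs of the same replicate number and muscle and in 0 of 18 pairs of other numbers. Within muscles 14 of 18 arrays correlated best with their own number, a hint of pairing from the data. The deviations of a group's 3 arrays sum to 0, so a high pair lowers the others and these counts are not separate support. Over pairs within and between muscles, 20 of 45 of the same number and 13 of 90 of other numbers were above 0.1. The pairs of number 3 within DIA and within EOM were not above 0.1, so not every pair met that mark. Although the study was repeated to give its replicates, nothing states that a number marks one repeat. With the replicate number as a block, 0 member probe sets passed in DIA (Cxcl12 adjusted p = 0.0535 from limma), 3 in EDL, and 2 between control DIA and EDL. Fits that left out 1 array gave 0 to 1 member probe sets in DIA, 0 to 3 in EDL, 1 to 2 in EOM and 3 to 5 in the mean. Between control muscles they gave 6 to 7 for EOM and EDL, 4 to 6 for EOM and DIA and 0 to 1 for DIA and EDL. No call turned its direction. By the mean of a gene's tested probe sets, some differences that had not passed turned direction, and still did not pass. The change of Flt1 in DIA went from 0.33 to -0.06, and that of Vegfa in EDL from -0.28 to 0.05. Flt1 in control EOM minus EDL went from -0.19 to 0.13. The difference of the Cxcl12 changes went from -0.54 to 0.18 for EOM minus DIA and from -0.59 to 0.01 for EOM minus EDL. That of the Flt1 changes went from 0.19 to -0.20 for DIA minus EDL. Those of the Vegfa changes went from 0.08 to -0.18 for EOM minus EDL and from 0.26 to -0.12 for DIA minus EDL. The cause of these shifts was not tested.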

Other observations

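Of the lists not described so far, lymphatic endothelium had 4 of 5 genes tested, and all 4 were higher in control EOM and in control DIA than in control EDL. In EAMG only Ccl21, a chemokine of lymphatic vessels, passed, lower by 0.99 in EDL (adjusted p = 0.0271 from limma), where its signals were below the signal minimum on every array. The 6 tested macrophage genes were all higher in control EOM than in control EDL, none passed in EAMG in a single muscle and 1 was higher in the mean over the muscles. Of the platelet genes 1 was tested, Pf4, and it did not pass in EAMG.

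On the list made for orbital glands, Thrsp rose by 3.15 in EOM and Me1 fell by 0.46 in EDL (adjusted p = 0.0111 and 0.0484 from limma). No other gene of it was called in a muscle. Among control arrays none of its 5 tested genes was higher in EOM than in DIA or EDL. In EOM 2 were lower than in DIA and 1 was lower than in EDL, so the list did not mark EOM here. Of 9 tested glucocorticoid targets 4 were higher in DIA, 7 in EDL and 4 in EOM and none was lower, with changes of 2.25 for Ddit4 and 2.16 for Fkbp5 in EDL (adjusted p = 0.00146 and 7.55e-05 from limma).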
